A study of Mus musculus with 4 samples.

Results

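The genes described here encode the machinery that makes microRNAs and carries out their silencing. They are the 4 Argonautes Ago1 to Ago4, the 3 TNRC6 scaffolds Tnrc6a, Tnrc6b and Tnrc6c, and the processing proteins Drosha, Dgcr8 and Dicer1, 10 genes in all. Every probe set that the array's annotation assigns to exactly 1 gene was taken where that gene was one of the 10, which gave 36 of the 45037 probe sets: 12 for Argonautes, 15 for TNRC6 and 9 for the processing genes. The question was whether transcripts of the effectors (Argonaute and TNRC6) and of the processors (Drosha, Dgcr8 and Dicer1) differed within a day of switching on 1 microRNA, miR-203, in mouse skin.

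In the induced pups, K14-rtTA, TRE-miR-203 and K14-H2BGFP were combined, so that the keratin 14 promoter, active in basal keratinocytes and the outer root sheath of the follicle, drove the doxycycline-dependent activator. The control pups, labelled WT, were littermates with TRE-miR-203 and K14-H2BGFP but without the activator. All pups were on the FVB background, received doxycycline and were sampled at postnatal day 4, 24 h later. The nuclear green fluorescent protein H2BGFP was thus shared by both groups, and since the activator and miR-203 differ together between the groups, their effects cannot be told apart. Skin cells were sorted (the gate is not stated), and 2 induced and 2 control arrays were hybridised, each labelled a biological replicate with no word on whether 1 pup or a pool stood behind it. The p-values below measure only the spread between these samples.

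A microRNA gene is transcribed as a long primary transcript from which the nuclear Microprocessor, made of the RNase III enzyme Drosha and its RNA-binding partner Dgcr8, cuts a hairpin. Dicer1 trims the exported hairpin to a duplex, an Argonaute protein takes up a single strand, and a TNRC6 protein bound to the Argonaute recruits deadenylases to the target messenger RNA. In epidermis, miR-203 is known for its abundance in the differentiating layers above the basal layer. The mature arms of the induced microRNA are shown because base pairing of the seed is what an Argonaute uses to find a target. Both are mouse RefSeq sequences of assembly GRCm38.p6, on the plus strand at chr12:112130927-112130948 for the 3p arm and chr12:112130889-112130910 for the 5p arm, printed 5′ to 3′ with the seed (bases 2 to 8) in capitals.
mmu-miR-203-3p: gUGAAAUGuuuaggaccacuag
mmu-miR-203-5p: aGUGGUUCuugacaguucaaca
Among 1679 mature mouse miRNA names in that table, 1 carried the seed of the 3p arm and 1 that of the 5p arm, in each case the arm itself, so no other listed microRNA shares either seed. The arrays analysed here do not measure the mature strands.

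Values are log2 RMA values, on which a difference of 1 is a 2-fold change in signal. The 4 arrays had medians of 4.78 and 4.76 (induced) and 4.74 and 4.79 (control), and Pearson's r over the 27022 probe sets kept was 0.994 between the induced arrays, 0.995 between the controls and 0.991 to 0.993 between groups. Xist, the RNA of the inactive X chromosome, read 5.86 in induced replicate 1 and 11.2 in induced replicate 2, against 10.6 and 10.8 in the controls. The Y-linked gene Eif2s3y read 9.38 in induced replicate 1 and 2.72 in induced replicate 2, against 2.82 and 2.52 in the controls, so that by these transcripts induced replicate 1 read as male and the other 3 arrays as female. The part of sex in the results below was not tested.

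The marker lists give the cell types behind the arrays. The basal keratinocyte genes averaged 10.9 and 10.9 in the induced and 11.1 and 11.2 in the control arrays. Of the 7, 6 were lower in both induced arrays than in either control, against 19.3% of all genes by their brightest probe set. The lowest difference was that of Col17a1, an anchoring collagen, at -0.71 ± 0.11 (adjusted p = 0.188 in limma). The exception was Itgb4, at 0.089 ± 0.13. The suprabasal genes averaged 13.8 and 13.7 in the induced and 13.8 in both control arrays, with Krt1 at -0.11 ± 0.10 and Sbsn at 0.019 ± 0.096. Of these 6 genes, 4 were lower in both induced arrays than in either control. Other cell types were present too. The 5 immune markers on the array all lay above the filter level of 4.17 and averaged 7.15 and 6.79 in the induced arrays, against 7.17 and 6.97 in the controls, with Lyz2 at -0.29 ± 0.096 and Cd74 at 0.052 ± 0.19. Of the red cell genes, Slc4a1 lay above that level, Alas2 barely so, with group means of 4.33 (induced) and 4.19 (control), and Hba-a1 below it. Also below it lay 4 of 5 endothelial markers (Pecam1, Cdh5, Tie1 and Emcn) and 3 of 6 fibroblast markers (Col1a1, Lum and Pdgfra). Those above were Kdr at -0.27 ± 0.16, Col1a2 at -0.19 ± 0.16, Col3a1 at 0.078 ± 0.51 and Dcn at -0.14 ± 0.27. Dcn, the brightest fibroblast marker, had means of 7.99 in the induced and 8.14 in the control arrays. In sorted cells, fewer cells of a type and less RNA per cell cannot be told apart.

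Of the 36 probe sets, 30 passed the filter (23 of effectors, 7 of processors), which required a mean over the 4 arrays at or above the 40th percentile. The 6 below it were 1 of Ago3, 2 of Tnrc6a, 1 of Tnrc6c and 2 of Dgcr8, with group means between 3.06 and 4.20, and they were not tested. In limma, 0 of the 30 passed an adjusted p of 0.05, and neither did any of the 27022 probe sets (0%). At an unadjusted p under 0.05, 4 members had a higher value after induction and 0 a lower one, where 5.41% of all probe sets were higher and 4.69% lower. The 4 were 3 probe sets of Ago2 and 1 of Tnrc6c. Both induced arrays lay above both controls for 14 of the 30 and below them for 2, against 20.9% and 18.2% of all probe sets. When limma's variance prior was trended on the level and made robust, 126 probe sets passed the adjusted threshold, 0.252% of all higher and 0.215% lower, 0 of them members.

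**Figure D1:**
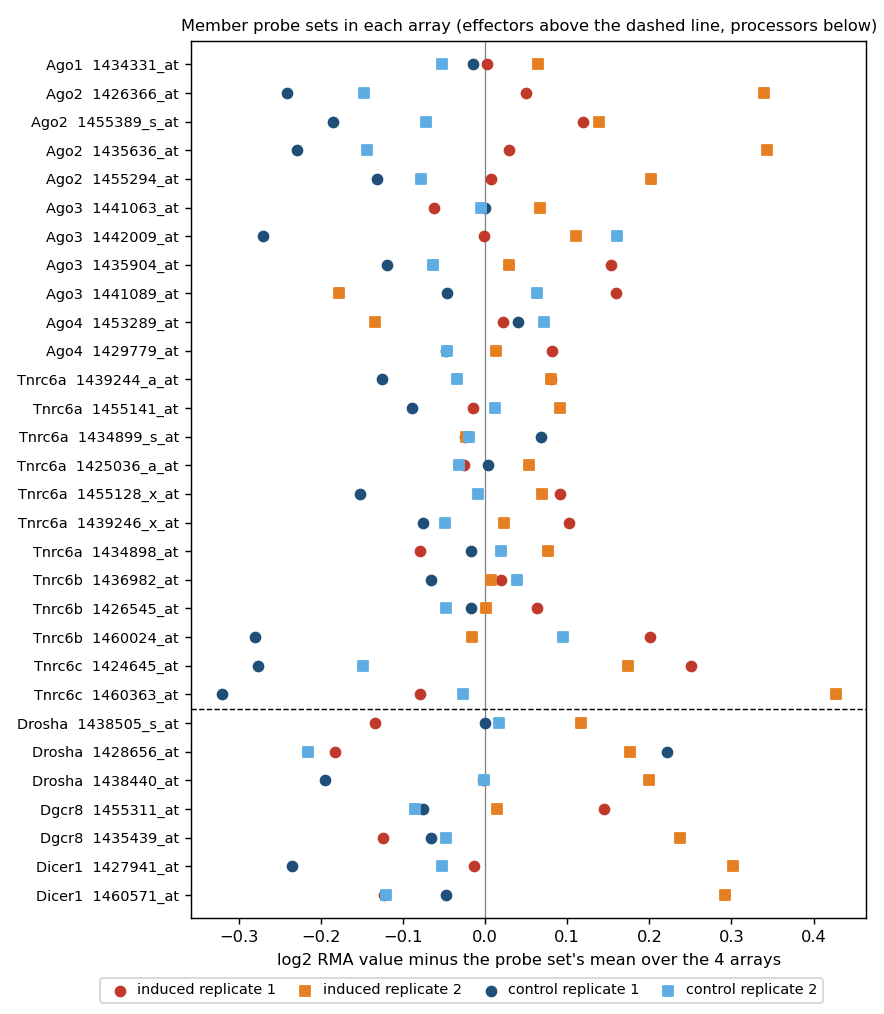
Each row is 1 of the 30 tested probe sets, and the points are the log2 RMA values of the 2 induced and 2 control arrays minus that probe set's mean over the 4 arrays. All 4 Ago2 rows have both induced arrays to the right of both controls, whereas the 3 Drosha rows overlap.

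Ago2, the Argonaute known for slicing fully paired targets, had higher values in the induced arrays in all 4 of its probe sets. Probe set 1426366_at read 8.25 and 8.54 in the induced arrays, against 7.96 and 8.05 in the controls. Its means were 8.40 ± 0.20 in induced and 8.01 ± 0.066 in control arrays (SD, n = 2 each). The groups did not overlap, and the lower induced array stood 0.20 above the higher control, less than the gap between the induced arrays. The difference was 0.39 ± 0.13 (SE), or 1.31-fold with a 95% interval of 1.05 to 1.63, and an adjusted p of 0.412 in limma.

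The other Ago2 probe sets had the same sign and smaller differences. Probe set 1435636_at read 7.30 and 7.61 in the induced arrays, against 7.04 and 7.13 in the controls, a difference of 0.37 ± 0.13 (adjusted p = 0.444). Probe set 1455389_s_at, annotated to the same target record, read 8.35 and 8.37 in the induced arrays, against 8.05 and 8.16 in the controls. Here the induced arrays were nearly equal, and the difference of 0.26 ± 0.10 exceeded the gap within either group. Probe set 1455294_at read 7.09 and 7.28 in the induced arrays, against 6.95 and 7.00 in the controls (0.21 ± 0.11, adjusted p = 0.601). All 4 had their highest value in induced replicate 2 and their lowest in control replicate 1. Because both induced arrays exceeded both controls in all 4, leaving out any array could change neither their sign nor their separation. Without induced replicate 2 the 4 differences were 0.24, 0.22, 0.25 and 0.11 in the order given, and without induced replicate 1 they were 0.53, 0.53, 0.27 and 0.31. The 4 probe sets measure 1 transcript pool and are not independent replicates.

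As a mean over 7 genes, hair follicle markers had the same order of arrays as Ago2. That mean log2 value was 9.54 and 10.1 in the induced arrays, against 8.96 and 9.35 in the controls. None of the 7 was below the filter, and 6 of 7 were higher on average after induction, where 49.6% of all genes were higher. The exception was Lef1, at -0.053 ± 0.19. Foxn1, a transcription factor of the hair shaft, differed by 0.79 ± 0.11 (adjusted p = 0.173 in limma). It read 7.18 and 7.02 in the induced arrays, with replicate 1 the higher, unlike Ago2. Krt71, Krt27, Krt25 and Msx2 had the order of the mean, whereas Krt35, Foxn1 and Lef1 did not. The part of follicle content in the Ago2 values was not tested.

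Ago1, Ago3 and Ago4 lie side by side on mouse chromosome 4, with Ago1 between the other 2, and all bind microRNAs, although their slicing activity is absent or restricted. Ago1 had a single probe set, which read 8.58 and 8.65 in the induced arrays, against 8.57 and 8.53 in the controls. The groups did not overlap, but the difference of 0.066 ± 0.096 (95% interval -0.17 to 0.30) was within the error of the model. It was 0.035 without induced replicate 2 and 0.098 without induced replicate 1. Ago3 had 4 tested probe sets with differences from -0.017 to 0.18, of which 1 was separated. That one, 1435904_at, read 4.99 and 4.87 in the induced arrays, against 4.72 and 4.77 in the controls, values less than 1 log2 unit above the filter level, and its difference was 0.12 without induced replicate 1. The least bright tested Ago3 probe set, 1441089_at, had its highest and its lowest value in the 2 induced arrays, 4.79 and 4.45.

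Ago4 gave opposite answers from 2 probe sets annotated to the same target record. Probe set 1453289_at read 6.82 and 6.66 in the induced arrays, against 6.83 and 6.87 in the controls, a difference of -0.11 ± 0.10. Probe set 1429779_at read 6.67 and 6.60 in the induced arrays, against 6.54 in both controls, a difference of 0.094 ± 0.095. Both were separated, in opposite directions and with intervals that include 0, so no direction is given for Ago4. Without induced replicate 1 the differences were -0.19 and 0.060, and without induced replicate 2 they were -0.034 and 0.13. Differences among the Argonautes therefore ran from -0.11 for 1 Ago4 probe set to 0.39 for 1 of Ago2. Whether Ago2 differed from the other Argonautes was not tested.

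Tnrc6c, one of the 3 glycine- and tryptophan-rich scaffolds, held the member probe set with the largest test statistic. Probe set 1424645_at read 7.73 and 7.66 in the induced arrays, against 7.20 and 7.33 in the controls. Its means were 7.69 ± 0.055 in induced and 7.27 ± 0.090 in control arrays (SD, n = 2 each), and the difference exceeded the gap within either group. The difference was 0.42 ± 0.10 (SE), or 1.34-fold with a 95% interval of 1.13 to 1.60 (unadjusted p = 0.00663 and adjusted p = 0.294 in limma). It lay between 0.36 and 0.49 with each array left out, and its adjusted p between 0.179 and 0.739 over the alternatives. An exact permutation test of 2 against 2 arrays has 6 arrangements and cannot give a two-sided p below 0.333.

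The other tested Tnrc6c probe set, 1460363_at, is annotated to the same target record and was less regular. It read 7.18 and 7.69 in the induced arrays, against 6.94 and 7.23 in the controls, so that induced replicate 1 lay below control replicate 2. Its difference of 0.35 ± 0.20 became 0.095 without induced replicate 2 and 0.60 without induced replicate 1. As a mean over 3 genes, Hba-a1 below the filter among them, red cell markers had the order of arrays of probe set 1424645_at. That mean log2 value was 4.74 and 4.61 in the induced arrays, against 4.32 and 4.44 in the controls. Both that passed the filter were separated, Slc4a1, the anion exchanger of red cells, by a difference of 0.71 ± 0.11 (adjusted p = 0.176 in limma) and Alas2 by 0.14 ± 0.095. Over all genes, 20.1% were separated upward. Slc4a1 had the order of the mean, but Alas2 read 4.22 and 4.17 in the controls, with replicate 1 the higher. The hair follicle markers listed beside Ago2 were higher in the induced arrays here too, and the part of either cell type in the Tnrc6c values was not tested.

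Tnrc6a, also known as GW182, had 7 tested probe sets, 5 with a higher and 2 with a lower induced mean, and a median difference of 0.077. Probe set 1439244_a_at, the brightest, read 8.25 in both induced arrays, against 8.05 and 8.14 in the controls (0.16 ± 0.097). Probe sets 1455128_x_at and 1439246_x_at were also separated, with differences of 0.16 and 0.13, and the suffix marks probes that can bind other transcripts. In the opposite direction, 1434899_s_at read 7.32 in both induced arrays, against 7.41 and 7.33 in the controls (-0.048 ± 0.097). The 3 probe sets annotated to 1 target record ran from -0.048 to 0.077, and 1 of those 3 had a higher mean in the induced arrays. No single direction holds over the Tnrc6a probe sets.

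Tnrc6b had 3 tested probe sets, all with a higher mean in the induced arrays by 0.027, 0.064 and 0.19, of which 1 was separated. That one, 1426545_at, read 7.29 and 7.23 in the induced arrays, against 7.21 and 7.18 in the controls, and its difference was 0.033 without induced replicate 1. The most variable, 1460024_at, read 6.63 and 6.42 in the induced arrays, against 6.15 and 6.53 in the controls, with control replicate 1 the lowest. Its difference of 0.19 ± 0.16 was -0.0024 without that array.

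**Figure D2:**
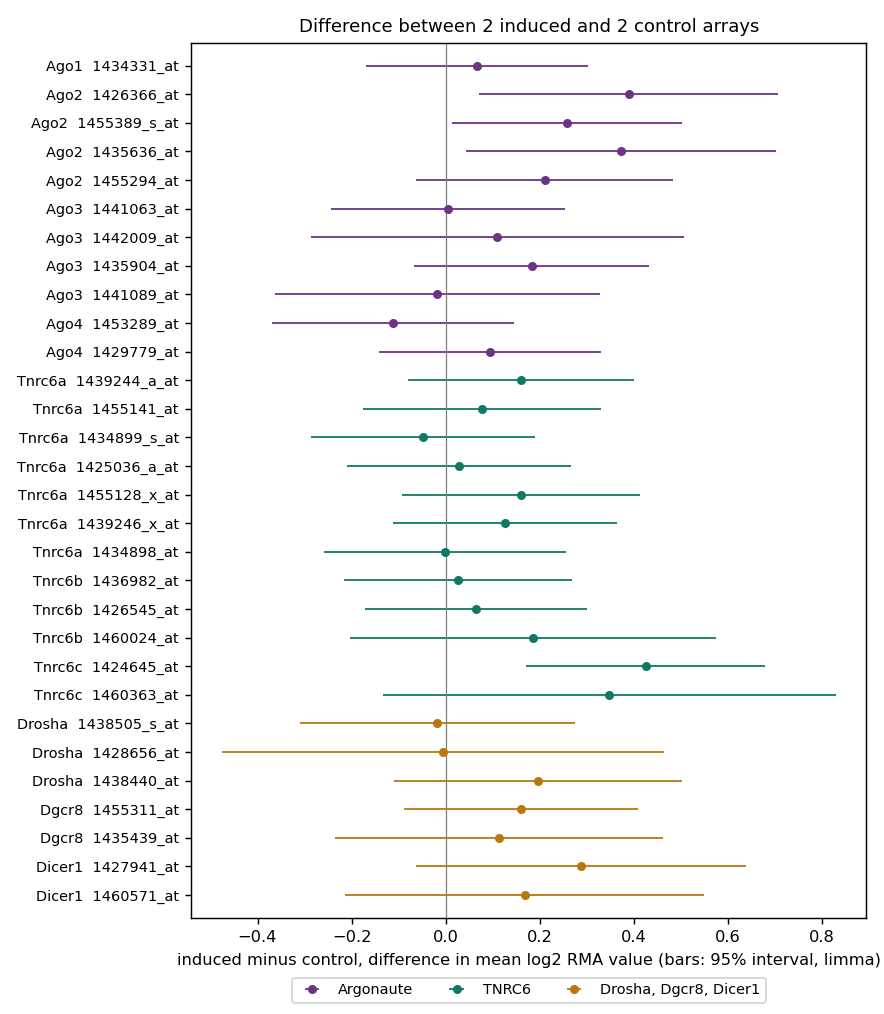
Points are the induced minus control differences in mean log2 RMA value for the 30 tested probe sets, with 95% intervals from limma (2 arrays a group). The intervals of 3 Ago2 probe sets and 1 of Tnrc6c lie above 0, before any adjustment for the number of tests, and those of all 7 processor probe sets include 0.

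Drosha, the nuclear RNase III, had 3 tested probe sets, none of them separated. The brightest, 1438505_s_at, read 7.40 and 7.65 in the induced arrays, against 7.53 and 7.55 in the controls, and the controls lay between the induced arrays. Its difference was -0.018 ± 0.12, with a 95% interval of -0.31 to 0.28, which is 0.806-fold to 1.21-fold. Probe set 1428656_at read 6.14 and 6.50 in the induced arrays, against 6.54 and 6.11 in the controls, a difference of -0.0061 ± 0.19. Probe set 1438440_at, dimmer, read 4.77 and 4.98 in the induced arrays, against 4.58 and 4.77 in the controls (0.20 ± 0.12), with induced replicate 1 and control replicate 2 almost equal. Its difference was 0.30 without induced replicate 1 and 0.095 without induced replicate 2. With 2 arrays a group, a Drosha difference within these intervals remains possible. The intervals are not a limit of detection.

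Dgcr8, whose own messenger RNA is known to be cut by the Microprocessor, had 2 tested probe sets annotated to 1 target record. Probe set 1455311_at read 7.49 and 7.36 in the induced arrays, against 7.27 and 7.26 in the controls, and was separated (0.16 ± 0.10, and 0.095 without induced replicate 1). Probe set 1435439_at read 6.63 and 7.00 in the induced arrays, against 6.69 and 6.71 in the controls, so that both controls lay between the induced arrays (0.11 ± 0.14). The induced array that was higher was replicate 1 in the first and replicate 2 in the other.

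Dicer1, the cytoplasmic RNase III, held the probe set with the largest difference among the processors, and both of its probe sets were highest in induced replicate 2. Probe set 1427941_at read 7.06 and 7.37 in the induced arrays, against 6.84 and 7.02 in the controls. The groups were separated by 0.038, with a difference of 0.29 ± 0.14 (1.22-fold, 95% interval 0.958 to 1.56, adjusted p = 0.578 in limma). Probe set 1460571_at read 6.76 and 7.18 in the induced arrays, against 6.84 and 6.76 in the controls, a difference of 0.17 ± 0.15 with only induced replicate 2 above both controls. Without that array the Dicer1 differences were 0.13 and -0.039, and without induced replicate 1 they were 0.45 and 0.38.

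**Figure D3:**
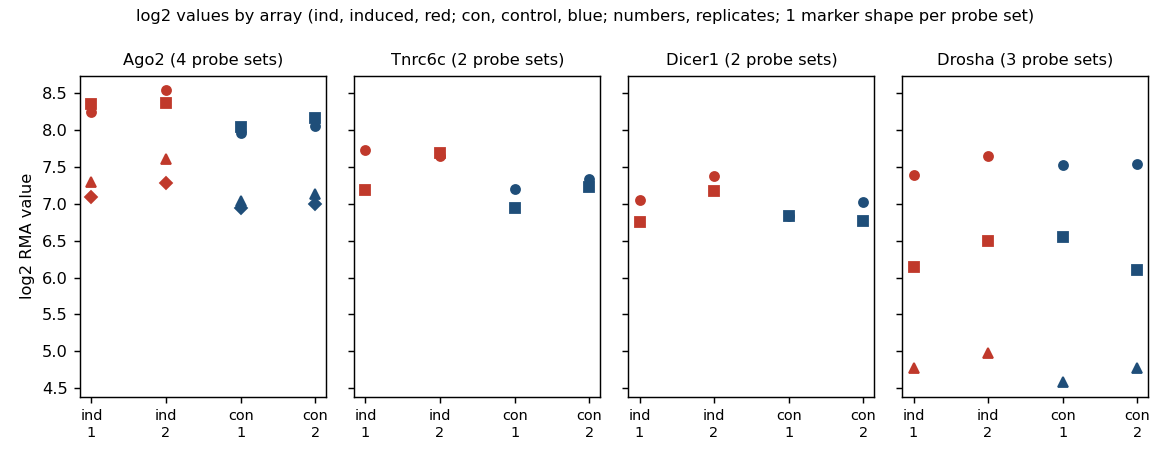
The log2 RMA value of every tested probe set of Ago2, Tnrc6c, Dicer1 and Drosha is shown for each array, induced arrays in red and control arrays in blue. Both Dicer1 probe sets are highest in induced replicate 2, and the Drosha values of the groups overlap in all 3 probe sets.

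The starts of Dicer1 and Drosha are printed because these processors had the highest and the lowest differences of their class. The sequences are the RefSeq promoter windows of GRCm38.p6, cut to the bases upstream of the annotated gene: 234 bases on the minus strand at chr12:104751969-104752202 for Dicer1 and 239 bases on the plus strand at chr15:12824565-12824803 for Drosha. They run 5′ to 3′ along the gene, and capitals mark CCAAT or its complement ATTGG.
Dicer1: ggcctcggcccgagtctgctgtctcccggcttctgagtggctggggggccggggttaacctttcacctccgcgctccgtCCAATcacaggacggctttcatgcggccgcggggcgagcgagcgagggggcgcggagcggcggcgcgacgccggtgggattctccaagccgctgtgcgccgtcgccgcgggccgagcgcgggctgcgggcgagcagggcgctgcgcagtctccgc
Drosha: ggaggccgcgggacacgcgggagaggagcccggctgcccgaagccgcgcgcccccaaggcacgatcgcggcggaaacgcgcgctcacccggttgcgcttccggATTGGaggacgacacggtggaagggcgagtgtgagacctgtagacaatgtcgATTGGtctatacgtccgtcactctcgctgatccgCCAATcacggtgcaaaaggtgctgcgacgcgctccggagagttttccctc
The Dicer1 stretch held 1 such match and the Drosha stretch 3. The counts over all genes use the full 250 bases before each window's own start, which for Dicer1 and Drosha run past the printed stretches. There, CCAAT on either strand was found in 6 of 11 member windows (5 of the 9 members with a window) and in 33.8% of 32851 mouse promoter windows. The GC box GGGCGG on either strand was found in 7 of the 11 (6 of the 9 members) and in 32.7%. Member windows ran from 42.4% (Tnrc6a) to 85.6% (Ago4) in G and C, against a median of 52.4% over all windows. The 1 GC box of Dicer1 lies in the part that is not printed. TATAAA on either strand was found in 0 of the 11 member windows and in 12.4% of all, and the palindrome CACGTG in 1 of the 11 (of Tnrc6b) and in 6.02%. These are matches of letters, without data on binding.

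Both classes had a median difference above that of all probe sets. The median difference was 0.11 over the 23 effector probe sets and 0.16 over the 7 processor probe sets, against 0.0019 over all 27022. The induced mean was higher for 19 effectors and lower for 4, and higher for 5 processors and lower for 2, where 50.7% of all probe sets were higher. Both induced arrays exceeded both controls for 12 of 23 effector probe sets and 2 of 7 processor probe sets, against 20.9% of all. Of those 12, 4 are of Ago2 and 3 of Tnrc6a, and probe sets of 1 gene are not independent. No test of effectors against processors was run, because the members were chosen with results of these arrays known.

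Counted by gene, with the brightest probe set standing for each, both induced arrays lay above both controls for 4 of 7 effectors (Ago1, Ago2, Tnrc6a and Tnrc6c) and 2 of 3 processors (Dgcr8 and Dicer1), against 20.1% of 13489 genes. For 1 gene of the 10, Ago4, they lay below, against 19.3%. Unadjusted p was under 0.05 for Ago2 and Tnrc6c, both higher, where 4.4% of all genes were higher and 5.23% lower, and 0 of the 10, like 0% of all genes, passed the adjusted threshold. By this count the median difference of effectors was 0.066 and that of processors 0.16.

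The 2 induced arrays lay closer together in the effector median than in the processor median. Taken as the value minus each probe set's own mean, the effector median was 0.029 in induced replicate 1 and 0.067 in induced replicate 2, against -0.089 and -0.032 in the controls. The processor median was -0.12 in induced replicate 1 and 0.20 in induced replicate 2, against -0.065 and -0.052 in the controls. The processor median of induced replicate 1, the array with the low Xist value, was thus below both controls. That array held the lowest value in 3 of the 7 processor probe sets (6856 of all 27022), and in 2 both induced arrays exceeded both controls. Induced replicate 2 exceeded induced replicate 1 in 6 of 7 processor probe sets, with a median gap of 0.32. It did so in 12 of 23 effector probe sets, with a median gap of 0.0019. Over all probe sets it did so in 51.9%, with a median gap of 0.0080. The difference between groups was larger than the gap within either group for 12 of 23 effectors and 1 of 7 processors, against 27.5% of all probe sets. Melanocyte markers averaged 8.72 in induced replicate 1 and 9.24 in induced replicate 2, against 8.84 and 8.89 in the controls, and all 6 lay above the filter level, with Tyr at 0.18 ± 0.12 and Sox10 at -0.060 ± 0.096. That order of the induced arrays about the controls is the order of the processor median. Dct, Tyrp1, Pmel and Mlana each had it, but neither Tyr nor Sox10 did. Fibroblast markers, 3 of 6 of them below the filter, had it too. They averaged 4.49 and 4.93 in the induced arrays, against 4.76 and 4.85 in the controls. The part of either cell type in the processor values was not tested.

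**Figure D4:**
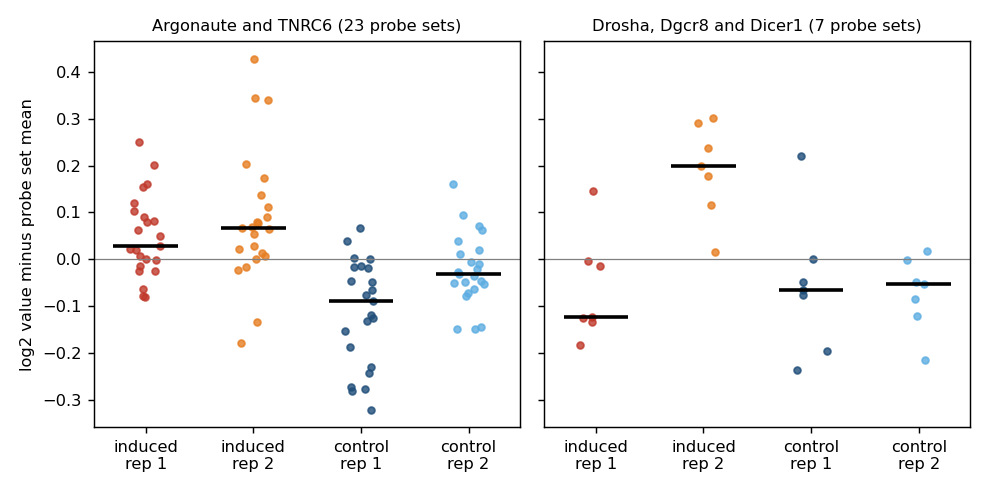
Points are probe sets, as log2 RMA value minus the probe set's mean over the 4 arrays, and bars are the class median in each array. The effector medians are 0.029 and 0.067 in the induced arrays and below 0 in both controls, whereas the processor medians are -0.12 and 0.20 in the induced arrays.

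The comparison of the classes turned on which induced array was kept. The median difference of effectors was 0.098 without induced replicate 1, 0.11 without induced replicate 2, 0.085 without control replicate 1 and 0.14 without control replicate 2. The processor median was 0.29 without induced replicate 1 and -0.039 without induced replicate 2, and 0.16 and 0.13 without control replicates 1 and 2. The effector median minus the processor median was -0.050 with all arrays, -0.20 without induced replicate 1 and 0.15 without induced replicate 2. Neither class was therefore above the other in a way that held with each induced array alone.

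**Figure D5:**
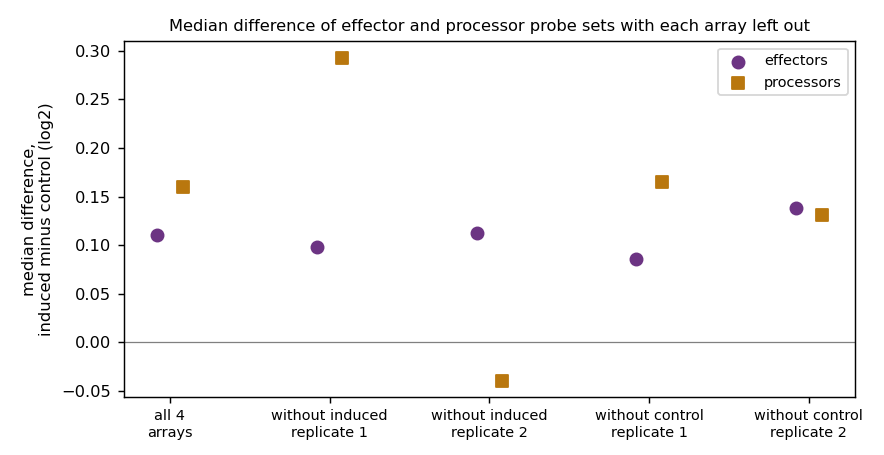
The median induced minus control difference is plotted for the 23 effector and 7 processor probe sets, with all 4 arrays and with each array left out. The effector median stays between 0.085 and 0.14, and the processor median spans -0.039 to 0.29.

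Genes around the core machinery did not share a direction. From 63 listed genes in 6 lists, 56 had a tested probe set, 27 with a higher and 29 with a lower induced mean, and their median difference was -0.011. Both induced arrays lay above both controls for 5 of the 56 and below for 12, against 20.1% and 19.3% of all genes. In limma 0 of the 56, like 0% of all genes, passed the adjusted threshold. At an unadjusted p under 0.05 there were 1 higher and 3 lower, where 4.4% of all genes were higher and 5.23% lower.

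Cofactors of processing and export had 3 of 9 tested members higher and 6 lower. Tarbp2, the double-stranded RNA-binding partner of Dicer, read 7.996 in both induced arrays, against 7.75 and 7.73 in the controls, a difference of 0.26 ± 0.093 (adjusted p = 0.451). Ran, the GTPase that carries export by Xpo5, read 12.0 and 12.3 in the induced arrays, against 12.4 and 12.3 in the controls (-0.22 ± 0.12). Chaperones that load Argonaute had 1 of 4 higher and 3 lower, with Hspa8, the constitutive Hsp70, at -0.25 ± 0.16 and its co-chaperone Dnaja2 at 0.0018 ± 0.095 and 2 of its 3 other tested probe sets of opposite sign.

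Argonaute partners had 4 of 9 higher and 5 lower. Fmr1, the fragile X RNA-binding protein, read 7.94 in both induced arrays, against 8.26 and 8.33 in the controls, a separated difference of -0.35 ± 0.095 (adjusted p = 0.334), while its paralog Fxr2 differed by 0.19 ± 0.11.

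Deadenylation and decapping genes, which act after TNRC6, had 13 of 23 higher and 10 lower, with a median of 0.010. Both induced arrays lay above both controls for 0 of the 23, against 20.1% of all genes. They lay below for 5 (21.7%), near the 19.3% of all genes. Cnot6, a catalytic deadenylase of the CCR4-NOT complex, read 10.05 and 9.91 in the induced arrays and 10.3 in both controls (-0.31 ± 0.10, adjusted p = 0.406), and 1 of its 3 other tested probe sets had the opposite sign. Cnot3, another CCR4-NOT subunit, differed by 0.12 ± 0.13, and its only other tested probe set had the opposite sign.

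Tailing and turnover genes had 6 of 10 higher and 4 lower. Xrn2, a nuclear 5′ to 3′ exonuclease, read 8.58 and 8.65 in the induced arrays, against 9.20 and 9.17 in the controls. Its groups were far apart relative to their spread, with a difference of -0.57 ± 0.096 (1.48-fold lower, adjusted p = 0.201 in limma), and its adjusted p was 0.0419 with the trended and robust prior. Tut7, a terminal uridylyltransferase, differed by 0.17 ± 0.11. Of the germline Argonaute relatives, Piwil1 alone of 3 passed the filter and differed by -0.20 ± 0.097 at values of 4.58 to 4.83, close to the filter level.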

How the data were processed

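Biotin-labelled RNA of 4 samples was hybridised to 1 Affymetrix mouse array each, per the labels' protocols. The authors deposited log2 values from RMA, named without a version in the submitters' processing notes. RMA puts all arrays on the same distribution, which hides any change in a cell's total RNA. The chip definition is not stated.

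The table held 45101 probe sets and 0 columns of other samples, and 64 control probe sets were left out. Of the remaining 45037, 34945 carried a single gene in the platform annotation, 932 several and 9160 none. RefSeq (GRCm38) supplied current symbols for 34741 of the 34945. The array names no genome build, so printed coordinates belong to the RefSeq sequences only, and 9 of the 10 members matched a promoter window.

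A filter at the 40th percentile of the mean over the arrays (4.17) left 27022 probe sets. In R 4.3.3, limma 3.58.1 compared the groups by two-sided moderated tests with Benjamini-Hochberg adjustment over all 27022, with 2 residual and 3.82 prior degrees of freedom. Differences are induced minus control, errors are the model's standard error unless marked SD, and intervals are 95%. The number of arrays limits the precision. The fit was tested on simulated data.

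All single-gene probe sets of the 10 members are accounted for. From each other list, markers included, the gene with the largest absolute statistic in each direction among brightest probe sets was named. For 1 effector and 1 processor, the 3 genes with the nearest profile were named. The members and lists were chosen with earlier results of these data known, so no p-value is given over the members. Alternatives were 2 other filters, 2 rescalings, another variance prior, the replicate number as a block, other ways of combining probe sets, and leaving out each array.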

Additional observations from a re-analysis of the deposited data

How the results depend on the processing

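Of the 30 tested member probe sets, 0 passed the adjusted threshold under any alternative run. Over all probe sets the count was 0 and became 126 with a trended and robust prior, and 0 to 6 with an array left out, 6 without induced replicate 2. Among the other pathway genes it became 1 (Xrn2) with the trended and robust prior. With the replicate number as a replicate block 0 probe sets and 0 members were called. Deviations of same-numbered arrays correlated at -0.100, and with the numbers crossed, an alternative chosen after seeing the data, 0 were called too. The numbers are not said to mark a litter.

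The effector median of 0.11 was 0.066 by brightest probe set and 0.072 with a gene's probe sets averaged. Effector minus processor ranged from -0.20 to 0.15 and the processor median from -0.039 to 0.29 with an array left out. Probe set 1441063_at of Ago3 (0.0048) was -0.0042 after a second quantile normalization and -0.00022 after centring on array medians. With arrays left out, signs changed within -0.060 to 0.070 for that probe set, -0.11 to 0.33 for 1442009_at and -0.19 to 0.15 for 1441089_at of Ago3, -0.011 to 0.068 for 1425036_a_at and -0.080 to 0.076 for 1434898_at of Tnrc6a, -0.025 to 0.079 for 1436982_at and -0.0024 to 0.37 for 1460024_at of Tnrc6b, -0.14 to 0.11 for 1438505_s_at and -0.22 to 0.21 for 1428656_at of Drosha, -0.068 to 0.29 for 1435439_at of Dgcr8, and -0.039 to 0.38 for 1460571_at of Dicer1. The cause was not tested. The other 19 member probe sets kept their sign throughout. For those with separated groups, leaving out an array could not change the sign. Separation of the groups also varied with rescaling. It was lost by 1434331_at of Ago1 and 1434899_s_at of Tnrc6a after centring on array medians. Probe set 1453289_at of Ago4 lost it after the second quantile normalization, and 1426545_at of Tnrc6b after either. In the other direction, 1438440_at of Drosha became separated after either. With 1 array left in a group, its spread was taken from the other.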

Other observations

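Profiles most like those of the leading effector and processor were sought among all tested probe sets with 1 named gene, as the smallest distance between the 4 log2 values after each probe set's mean was taken off. For Tnrc6c (1424645_at) the nearest were D2hgdh, at a distance of 0.014, Pgpep1, at 0.023, and the stress keratin gene Krt6a, at 0.026. D2hgdh read 7.69 and 7.63 in the induced arrays, against 7.17 and 7.29 in the controls, and Krt6a read 9.11 and 9.03 in the induced arrays, against 8.57 and 8.73 in the controls. For Dicer1 (1427941_at) the nearest were Dlc1, at 0.022, Tra2a, at 0.027, and Aplp2, at 0.029. Dlc1 read 6.38 and 6.67 in the induced arrays, against 6.16 and 6.32 in the controls.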
